A study of Mus musculus with 23 samples.

Results

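Mbp, Pmp22, Cnp and Ndrg1 are genes of the Schwann cell, the glial cell that wraps the motor and sensory axons running through a muscle. They were followed in hindlimb muscle of mice that had been suspended by the tail, suspended and then reloaded, or flown in space. They are 4 of the 12393 genes named on the array, and all probe sets whose platform symbol is exactly one of these names were taken. That gave 17 of 22626 probe sets that are not controls: 8 for Mbp, 1 for Pmp22, 3 for Cnp and 5 for Ndrg1. All groups were female C57BL/6J, 77 days of age, with 23 arrays in all and 1 sample on each. In the calf experiment, 5 arrays came from calf muscle after hindlimb suspension for 12 days, 5 from calf muscle after the same suspension followed by 3.5 hours of reloading (reloaded), and 5 from untreated mice in normal housing (control). In the flight experiment, 4 arrays came from gastrocnemius after spaceflight for 11 days and 19 hours, and 4 from gastrocnemius of mice held on earth for that time in an animal enclosure module (ground AEM). Groups were taken from sample titles. In the labels' description field the housing given for spaceflight and for ground AEM is swapped, and were that field right, the flight differences would change sign.

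Myelin is a stack of Schwann cell membrane wound around an axon, and it lets impulses jump between gaps in the sheath. In compact myelin the membranes are pressed together: myelin basic protein, encoded by Mbp, binds their cytoplasmic faces, and peripheral myelin protein 22, encoded by Pmp22, is a membrane protein of the compact sheath whose gene dosage is altered in inherited neuropathies of Charcot-Marie-Tooth type. CNPase, encoded by Cnp, is an enzyme of the cytoplasm-filled, non-compact parts of the sheath, and NDRG1 is a cytoplasmic protein of Schwann cells, also induced by hypoxia in many cell types, whose loss in humans causes a demyelinating neuropathy. Pmp22, Cnp and Ndrg1 are also expressed outside Schwann cells.

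Start-site windows from the RefSeq promoter table are shown for Pmp22 and Cnp, to give the letters around the start of a compact and a non-compact myelin gene. Windows of Mbp and Ndrg1 are not used here. Each window holds 250 bases before and 50 bases after the annotated start, on the + strand of GRCm38.p6. The Pmp22 window is the first of 4 in the table, at chr11:63128732-63129031, and the Cnp window is the only one, at chr11:100574689-100574988. Capitals mark matches to 3 short words looked for on both strands: ACAAAG, a core word of SOX factors, GCGTGGG, a core word of EGR factors, and CATTCC, a core word of TEAD factors.
Pmp22: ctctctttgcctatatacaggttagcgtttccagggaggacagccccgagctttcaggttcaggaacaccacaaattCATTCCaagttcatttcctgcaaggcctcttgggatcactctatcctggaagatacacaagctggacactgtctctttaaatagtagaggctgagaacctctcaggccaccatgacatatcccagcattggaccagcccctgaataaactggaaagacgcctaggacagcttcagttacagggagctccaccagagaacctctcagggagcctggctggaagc
Cnp: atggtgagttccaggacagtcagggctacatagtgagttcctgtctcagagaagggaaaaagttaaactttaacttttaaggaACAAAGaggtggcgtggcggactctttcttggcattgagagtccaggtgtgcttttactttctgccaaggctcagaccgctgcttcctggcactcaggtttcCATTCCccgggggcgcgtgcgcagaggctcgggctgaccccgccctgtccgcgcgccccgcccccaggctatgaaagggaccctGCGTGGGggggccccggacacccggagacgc
The Pmp22 window holds CATTCC at base -173 relative to the start, and none of the 3 words was found in the other Pmp22 windows. The Cnp window holds ACAAAG at base -167, CATTCC at base -65 and GCGTGGG at base 19. Of 32851 windows in the table, 18.7% hold ACAAAG, 14.7% hold CATTCC and 5.04% hold GCGTGGG. The words were chosen after the expression values had been seen, and a match is a description of the letters only.

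Values are deposited log2 signals. All 17 probe sets passed the level filter, a log2 signal above 5.83 on at least 4 arrays, which left 14851 probe sets for testing. Mbp 1454651_x_at passed through other groups, being under that level on all 5 control arrays. The 4 genes are represented below by the probe set with the highest mean over all arrays: 1433532_a_at for Mbp, 1417133_at for Pmp22, 1437341_x_at for Cnp and 1420760_s_at for Ndrg1. Probe sets of 1 gene share a target and are not independent, and names ending in _s_at or _x_at mark probes that can also bind other transcripts. Levels were compared only within an experiment, since the interquartile range of an array's log2 values was 2.75 to 2.91 in the flight experiment and 2.21 to 2.46 in the calf experiment. The arrays of a group correlated at 0.965 or higher, and suspension 8 stood farthest from its group with a median correlation of 0.972. Mean log2 signal of 7 skeletal muscle fibre genes was 13.35 to 13.54 on every array. Of 13 Schwann cell identity genes on the array 10 passed the level filter, and of 5 oligodendrocyte genes 0 passed (Mog, Mobp, Cldn11, Olig1 and Olig2).

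The first comparison asks what 12 days of hindlimb suspension did to these transcripts. Mbp was 3.67-fold higher in suspended than in control calf muscle, Ndrg1 1.71-fold and Cnp 1.58-fold, and all 3 passed the test, whereas Pmp22 was 2.15-fold higher and did not. Of the 17 probe sets, limma called 10 higher and 0 lower, where 0.182% of all tested probe sets were called higher. At an unadjusted p under 0.05, 15 of 17 were higher, against 3.42% of all. All 17 differences were above 0, against 49.9% of all. The suspension and control arrays did not overlap for 14 of the 17, against 0.741% of all probe sets, and the median log2 difference was 0.76, against -0.00 over all probe sets. In bulk muscle, more cells of a type and more RNA per cell cannot be told apart.

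Mbp had log2 signals of 10.36, 10.75, 11.16, 10.80 and 10.88 on suspension arrays 11, 25, 30, 8 and 9, against 9.25, 9.18, 8.96, 8.86 and 8.33 on control arrays 19, 1, 21, 22 and 2. The lowest suspension array lay more than 1 log2 unit above the highest control array. The log2 difference was 1.87 ± 0.38 (SE, limma adjusted p = 0.0354). Of the other Mbp probe sets, 4 rose as well: 1456228_x_at by 2.10 ± 0.39 (adjusted p = 0.0190), 1436201_x_at by 1.81 ± 0.29 (adjusted p = 0.00939), 1419646_a_at by 1.69 ± 0.34 (adjusted p = 0.0299) and 1454651_x_at by 1.29 ± 0.26 (adjusted p = 0.0299), all from the same limma fit. Mbp 1451961_a_at differed by 0.93 ± 0.23 with no overlap of the groups, at a limma adjusted p of 0.0986. The remaining Mbp probe sets, 1425264_s_at and 1425263_a_at, differed by 0.08 and 0.07 with overlapping groups.

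Pmp22, with a single probe set, read 10.32, 10.69, 11.04, 11.04 and 10.78 on suspension arrays 11, 25, 30, 8 and 9, against 9.70, 9.78, 9.62, 9.70 and 9.56 on control arrays 19, 1, 21, 22 and 2. The control arrays were tightly grouped, with an SD of 0.08, and all lay below the suspension arrays. The log2 difference was 1.10 ± 0.25 (SE), and the limma adjusted p of 0.0699 did not pass. It passed in fits on the 2 groups alone (limma adjusted p = 0.000304), on all 23 arrays (0.0311) and without suspension 11 (0.0417), and in none of the other alternatives run. Pmp22 was ranked 71 of the 14851 probe sets by p in this comparison.

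Cnp read 7.71, 7.79, 7.82, 8.16 and 7.83 on suspension arrays 11, 25, 30, 8 and 9, against 7.18, 7.35, 7.35, 6.95 and 7.20 on control arrays 19, 1, 21, 22 and 2. The groups did not overlap, and suspension 8 was the highest. The log2 difference was 0.66 ± 0.14 (SE, limma adjusted p = 0.0402). A second probe set, 1418980_a_at, rose by 0.50 ± 0.09 (limma adjusted p = 0.0149), and the third, 1449296_a_at, differed by 0.24 ± 0.08 (limma adjusted p = 0.320).

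Ndrg1 read 8.06, 8.23, 8.22, 8.57 and 8.44 on suspension arrays 11, 25, 30, 8 and 9, against 7.42, 7.74, 7.38, 7.51 and 7.61 on control arrays 19, 1, 21, 22 and 2. Here too every suspension array lay above every control array. The log2 difference of 0.77 ± 0.12 (SE, limma adjusted p = 0.00750) had the lowest adjusted p of the 17 probe sets. Ndrg1 1450976_at rose by 0.70 ± 0.14 and 1450977_s_at by 0.41 ± 0.08 (limma adjusted p = 0.0299 and 0.0380). Ndrg1 1456174_x_at differed by 0.76 ± 0.20 and 1423413_at by 0.50 ± 0.13, and neither passed (limma adjusted p = 0.129 and 0.150).

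**Figure D1:**
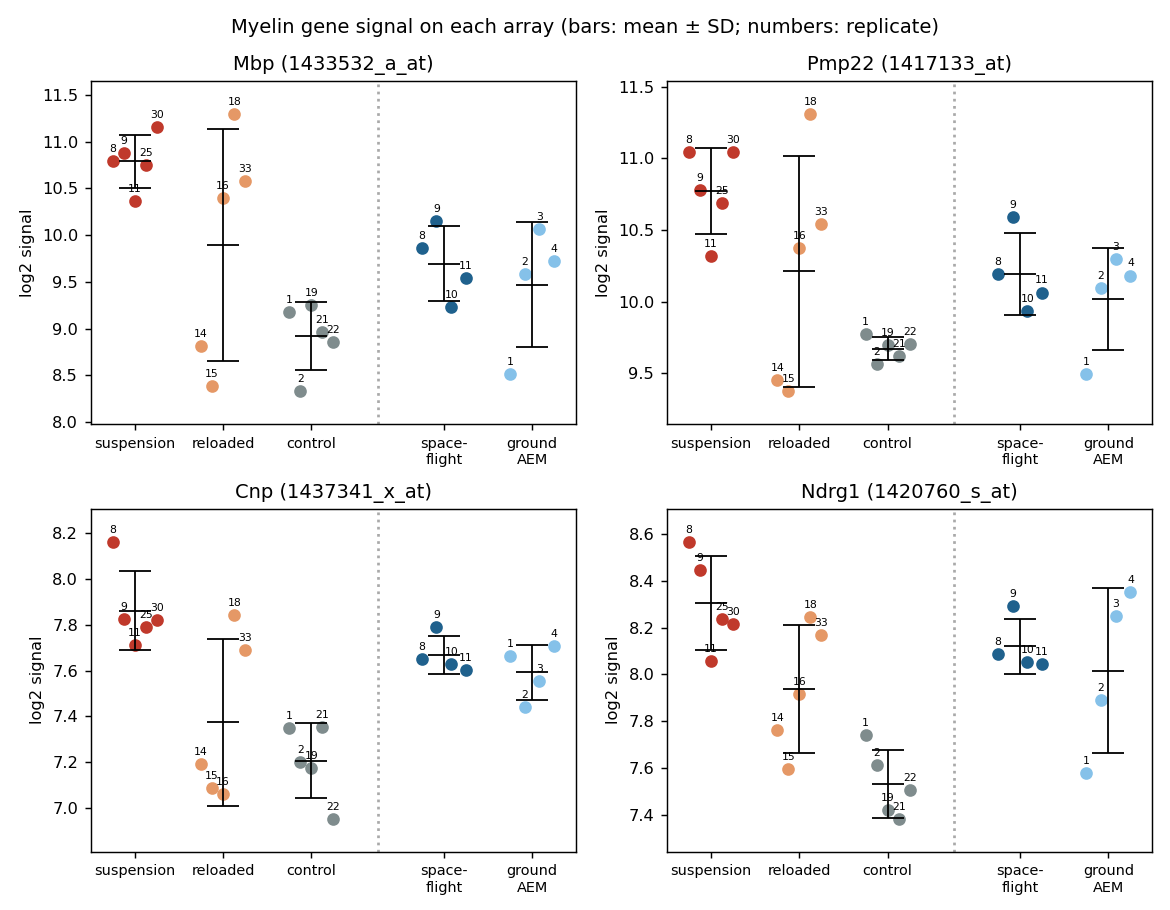
Log2 signal of the highest-signal probe set of Mbp, Pmp22, Cnp and Ndrg1 on each of 23 arrays, by group, with numbers giving the replicate and bars the mean and SD; calf groups stand left of the dotted line and gastrocnemius groups right of it. All suspension arrays lie above all control arrays in the 4 panels, the reloaded arrays spread over both, and the spaceflight and ground AEM arrays overlap.

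The direction of the 10 calls was the same under every alternative run, but the number of calls depended on the arrays. Without 1 array it was 11 (suspension 11), 7 (suspension 25), 4 (control 19, control 1 or suspension 8), 3 (control 21, control 2, suspension 30 or suspension 9) or 2 (control 22), and with suspension arrays 8 and 9 both left out it was 0. Fitted on the 2 groups alone it was 12, with Pmp22, Mbp 1451961_a_at and Ndrg1 1456174_x_at gained and 1 call lost, and fitted on all 23 arrays it was 11. Arrays 8 and 9 had the narrowest interquartile range of log2 values in the calf experiment, 2.21 and 2.30, and the count was 10 with this range as a covariate, a fit added once the data had been seen. With a single probe set tested per gene, Mbp, Cnp and Ndrg1 passed (limma adjusted p = 0.0287, 0.0331 and 0.00376) and Pmp22 did not (limma adjusted p = 0.0566). Over all probe sets tested, 14 to 70 were called in either direction with 1 array left out, and 7 to 71 under the other alternatives.

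Reloading for 3.5 hours after the suspension asks whether these levels change within hours. The comparisons of reloaded muscle with suspended muscle and with control muscle share arrays with the suspension comparison and are set beside it without being independent of it. Between reloaded and suspended muscle limma called 0 of the 17 probe sets, where 0.579% of all probe sets were called, and 13 of the 17 were lower at an unadjusted p under 0.05, against 4.48% of all. Between reloaded and control muscle it also called 0 of 17, where 0.337% of all were called, and 12 were higher at an unadjusted p under 0.05, against 3.19% of all. The median log2 difference of the 17 was -0.41 against suspension, where 0 of 17 were above 0 and 45% of all were. Against control the median was 0.39, with 16 of 17 above 0 and 44.4% of all.

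By the probe set with the highest mean, the reloaded arrays did not form 1 group for the compact myelin genes. Mbp read 8.82, 8.38, 10.40, 11.30 and 10.58 on reloaded arrays 14, 15, 16, 18 and 33. Reloaded 14 and 15 lay at or under the highest control array (9.25), and reloaded 16, 18 and 33 lay at or above the lowest suspension array (10.36). Pmp22 read 9.45, 9.38, 10.38, 11.31 and 10.54 on the same arrays and split in the same way, with reloaded 14 and 15 below every control array. The SD of Mbp over the reloaded arrays was 1.24, against 0.29 in suspension and 0.36 in control, and 0.00673% of all tested probe sets had a higher SD in that group. It ranked 2 there, behind another probe set of the same gene, Mbp 1456228_x_at (SD 1.25). For Pmp22 the SD was 0.81 and 0.101% were higher, Mbp probe sets among them, where the median SD of all tested probe sets was 0.12.

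Cnp and Ndrg1 also spread widely over the reloaded arrays, with SDs of 0.36 and 0.27. Of all tested probe sets, 0.929% and 2.64% had a higher SD in that group. Cnp read 7.19, 7.09, 7.06, 7.84 and 7.69 on reloaded arrays 14, 15, 16, 18 and 33, so that reloaded 16, which was high for Mbp, was the lowest for Cnp. For Cnp 3 arrays lay at or under the highest control (7.35) and 1 at or above the lowest suspension array (7.71), with reloaded 33 just under it. Ndrg1 read 7.76, 7.60, 7.91, 8.25 and 8.17 on the same reloaded arrays, with 1 array at or under the highest control and 2 at or above the lowest suspension array. Reloaded 18 was the highest and reloaded 14 and 15 lay in the lower part of the range for all 4 genes.

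The log2 difference of reloaded minus suspended muscle was -0.90 ± 0.38 for Mbp, -0.56 ± 0.25 for Pmp22, -0.49 ± 0.14 for Cnp and -0.37 ± 0.12 for Ndrg1 (SE, limma adjusted p = 0.480, 0.505, 0.189 and 0.320). Against control it was 0.98 ± 0.38, 0.54 ± 0.25, 0.17 ± 0.14 and 0.40 ± 0.12 in the same order of genes (limma adjusted p = 0.579, 0.701, 0.892 and 0.263). Ordered by mean, each of the 4 genes was highest in suspension, then reloaded, then control, and the reloaded group overlapped both neighbours for every one of them. Among the other probe sets, Cnp 1418980_a_at and Ndrg1 1450977_s_at had all reloaded arrays above all control arrays, which 1.04% of all probe sets did. Without reloaded 18, limma called 4 of the 17 lower in reloaded than in suspended muscle. With 1 array left out, 58 to 104 of all probe sets were called in that comparison, in either direction.

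**Figure D2:**
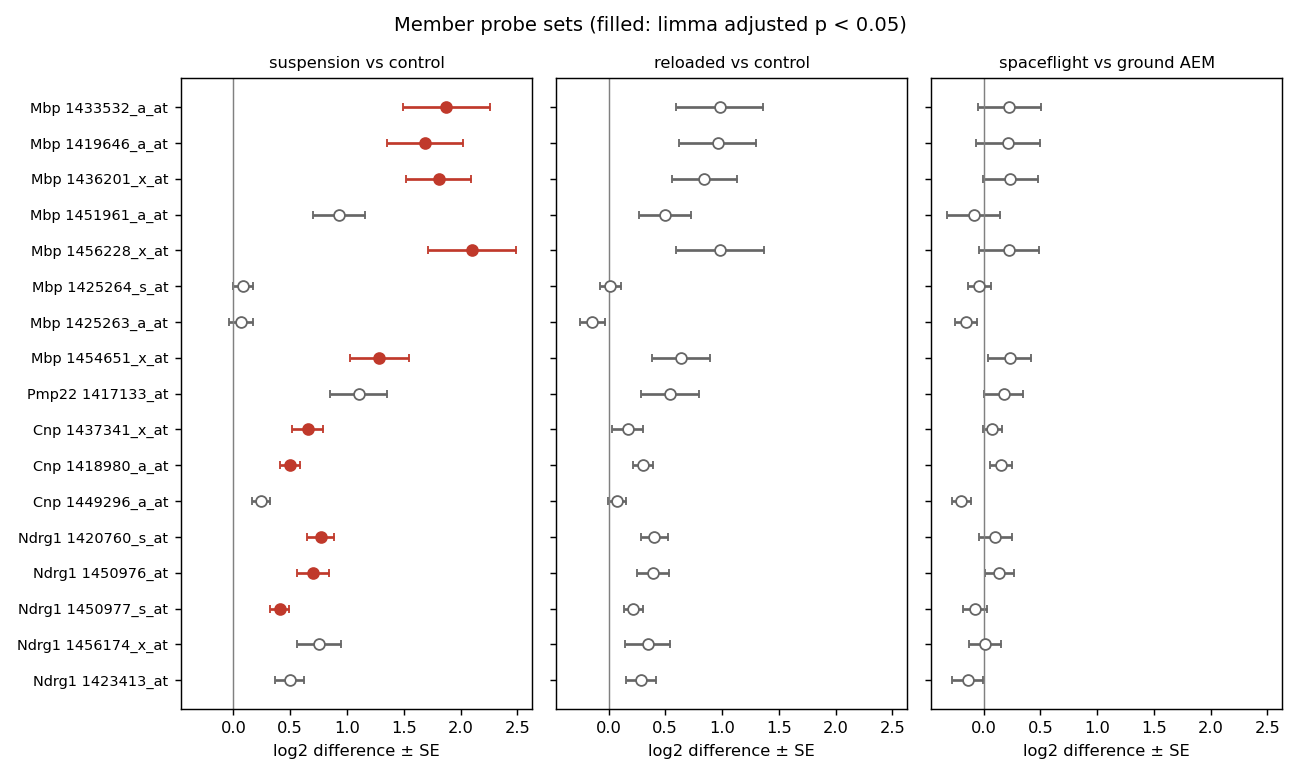
Log2 difference with its SE for each of the 17 probe sets, in suspension against control, reloaded against control, and spaceflight against ground AEM; filled points passed limma at an adjusted p under 0.05. In suspension 10 points are filled and all lie above 0, up to 2.10, whereas the flight differences lie between -0.20 and 0.24 and none is filled.

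The flight comparison asks whether the same transcripts differ in gastrocnemius after spaceflight. They did not pass the test: limma called 0 of the 17 probe sets, where 6.36% of all were called, and 1 of 17 had an unadjusted p under 0.05, against 20.6% of all. The differences lay between -0.20 and 0.24, with a median of 0.10, and 11 of 17 were above 0, against 45.8% of all. The groups overlapped for all 17, where 6.26% of all probe sets had every spaceflight array above every ground AEM array and 6.67% had every one below.

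Mbp read 9.23, 9.54, 9.87 and 10.15 on spaceflight arrays 10, 11, 8 and 9, against 8.51, 9.58, 10.06 and 9.73 on ground AEM arrays 1, 2, 3 and 4. Ground AEM 1 was the lowest of the 8 arrays, and the other ground AEM arrays lay within the range of the spaceflight arrays. The log2 difference was 0.23 ± 0.28 (SE, limma adjusted p = 0.694), and without ground AEM 1 it was -0.09. Pmp22 read 9.93, 10.06, 10.19 and 10.59 on spaceflight arrays 10, 11, 8 and 9, against 9.49, 10.10, 10.29 and 10.18 on ground AEM arrays 1, 2, 3 and 4, with ground AEM 1 again the lowest. Its log2 difference was 0.18 ± 0.17 (SE, limma adjusted p = 0.608).

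Cnp read 7.63, 7.60, 7.65 and 7.79 on spaceflight arrays 10, 11, 8 and 9, against 7.66, 7.44, 7.56 and 7.71 on ground AEM arrays 1, 2, 3 and 4, a log2 difference of 0.08 ± 0.08 (SE, limma adjusted p = 0.659). Ndrg1 read 8.05, 8.05, 8.09 and 8.29 on spaceflight arrays 10, 11, 8 and 9, against 7.58, 7.89, 8.25 and 8.35 on ground AEM arrays 1, 2, 3 and 4, a log2 difference of 0.10 ± 0.14 (SE, limma adjusted p = 0.735). For both genes the groups overlapped. Cnp 1449296_a_at was the 1 probe set with an unadjusted p under 0.05 (log2 difference -0.20, limma adjusted p = 0.202).

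The flight effect and the suspension effect were then tested against each other over all 23 arrays, each effect taken within its own experiment. The difference of effects was below 0 for all 17 probe sets, where 47.6% of all probe sets were above 0, and its median was -0.67. It was -1.65 ± 0.56 for Mbp, -0.93 ± 0.36 for Pmp22, -0.58 ± 0.18 for Cnp and -0.67 ± 0.20 for Ndrg1 (SE, limma adjusted p = 0.159, 0.252, 0.124 and 0.0863), so none of these passed. The 1 probe set called was Cnp 1449296_a_at (-0.44 ± 0.11, limma adjusted p = 0.0451), where 0.619% of all were called lower, and 15 of the 17 were lower at an unadjusted p under 0.05, against 6.52% of all. Without ground AEM 1 the count of calls was 6, without spaceflight 9 it was 2, and with the flight labels exchanged it was 10. Without 1 of control 19, 1, 22 or 2, suspension 30, 8 or 9, ground AEM 2, 3 or 4, or spaceflight 10, 11 or 8, it was 0. Over all probe sets tested, 162 to 311 were called in either direction with 1 array left out, and 83 to 969 under the other alternatives. Tissue, housing of the reference mice (animal enclosure module or normal housing) and the range of log2 values differ between the experiments as well. None of these can be told apart from the difference between flight and suspension. Flight minus the reloaded-against-control effect, which uses the same flight and control arrays, was called for 0 of 17, where 3.27% of all were called, and 3 were lower at an unadjusted p under 0.05, against 6.97% of all. All 17 were below 0, where 49.2% of all probe sets were above 0, and the median was -0.34.

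Whether the genes move together was read from each array's deviation from its group mean, which removes differences between groups. Of 6 pairs in each experiment, 12 in all, 3 passed in calf muscle and 3 in gastrocnemius after Benjamini-Hochberg adjustment over the 12. By rank, 3 of these 6 pairs passed: Mbp with Pmp22 in both muscles, and Pmp22 with Ndrg1 in calf. Mbp and Pmp22, the pair of compact myelin genes, varied together most closely in both. Over the 15 calf arrays their Pearson r was 0.944 (two-sided permutation p = 0.0001, adjusted p = 0.0012) and Spearman's rho was 0.882 (permutation p = 0.00157, adjusted p = 0.0104). Pearson r was 0.880 without reloaded 15 and 18, the arrays farthest from the median of Mbp. Here and below, r without 2 arrays used group means that still included those arrays. Over the 10 calf arrays without the reloaded group r was 0.685 (permutation adjusted p = 0.0485). Over the 8 gastrocnemius arrays r was 0.971 (exact permutation p = 0.00174, the smallest the test allows, adjusted p = 0.0104), rho was 0.952 with the same exact p, and r without ground AEM 1 and spaceflight 10 was 0.908.

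Ndrg1 followed Pmp22 and Cnp in calf muscle. With Pmp22 its r was 0.792 (permutation p = 0.00545, adjusted p = 0.0218) and rho 0.761 (permutation p = 0.0120, adjusted p = 0.0480), and without reloaded 18 and 15 r was 0.645. With Cnp its r was 0.766 (permutation p = 0.00910, adjusted p = 0.0273) and rho 0.654 (permutation p = 0.0383, adjusted p = 0.0766), and without reloaded 18 and 33 r was 0.632. Over the 10 calf arrays without the reloaded group these pairs had r of 0.590 and 0.580 and did not pass (permutation adjusted p = 0.278 for each), with 10 arrays in place of 15. The other calf pairs did not pass: r was 0.688 for Mbp with Ndrg1 (permutation p = 0.0325, adjusted p = 0.0558), 0.721 for Pmp22 with Cnp (permutation p = 0.0482, adjusted p = 0.0723) and 0.628 for Mbp with Cnp (permutation p = 0.141, adjusted p = 0.188). Their rho was 0.596, 0.539 and 0.489 (permutation p = 0.0707, 0.131 and 0.180), and without reloaded 15 and 18 their r was 0.409, 0.468 and 0.320. Over the 10 calf arrays without the reloaded group their r was 0.122, 0.480 and 0.229 (permutation adjusted p = 0.733, 0.330 and 0.623).

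In gastrocnemius, Ndrg1 followed Mbp (r = 0.857) and Pmp22 (r = 0.852), each with an exact permutation p of 0.0139 and an adjusted p of 0.0278. Their rho was 0.833 and 0.738 (exact permutation p = 0.0278 and 0.0208, adjusted p = 0.0667 and 0.0625), and r was 0.700 without ground AEM 1 and spaceflight 10 and 0.702 without ground AEM 1 and spaceflight 9. With 1 array left out and the group means taken again, r fell as low as 0.600 with Mbp and 0.633 with Pmp22. Both pairs lost the call when 1 of ground AEM 1, 2 or 3 or spaceflight 8 or 9 was left out, and the pair with Mbp also without ground AEM 4. The Cnp probe set did not follow the others there: r was 0.01 with Mbp, 0.13 with Pmp22 and 0.29 with Ndrg1 (exact permutation p = 0.993, 0.802 and 0.595, adjusted p = 0.993, 0.875 and 0.715), with rho of 0.357, 0.357 and 0.500 (exact permutation p = 0.438, 0.436 and 0.260). Without the 2 arrays farthest from the median, r was 0.434, 0.231 and -0.429. This depends on the probe set, as Cnp 1449296_a_at had r = 0.832 with Mbp over the same 8 arrays and r = -0.299 with Cnp 1437341_x_at.

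**Figure D3:**
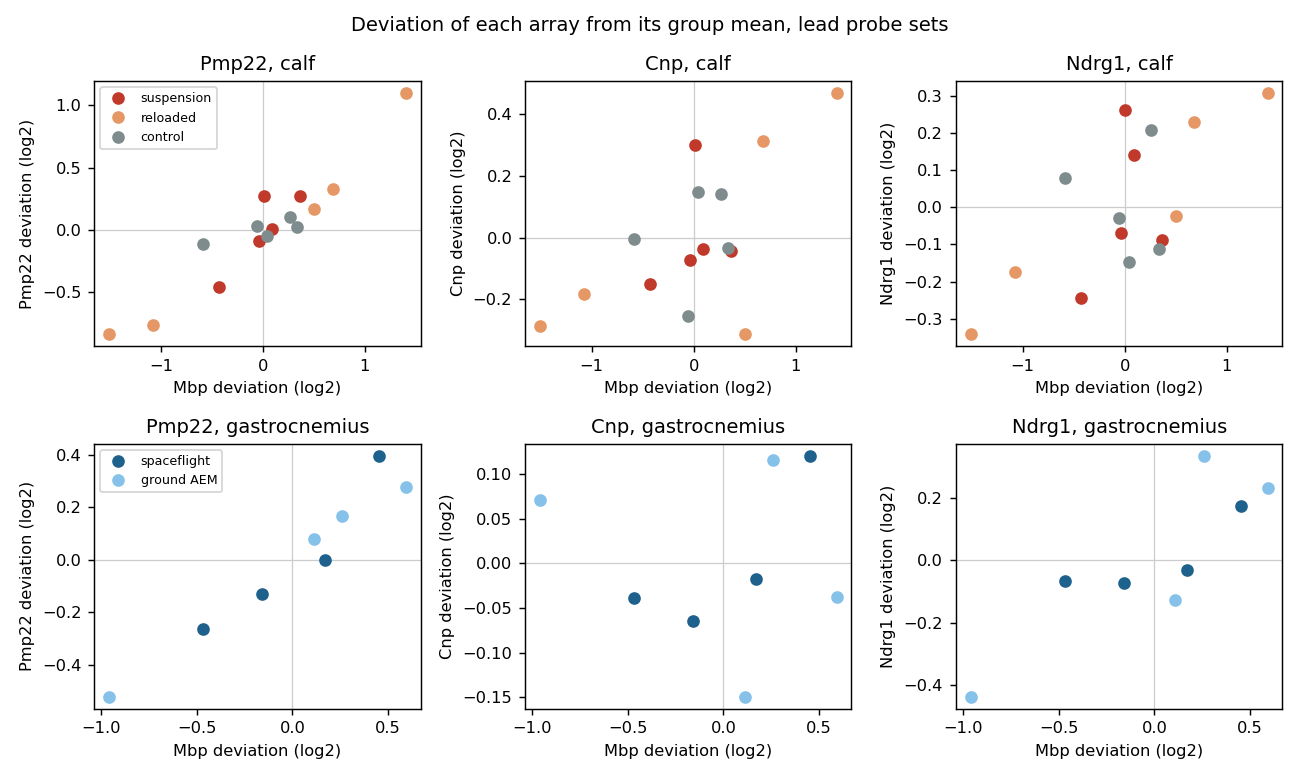
Deviation of each array from its group mean (log2) for Pmp22, Cnp and Ndrg1 against that of Mbp, in calf muscle (upper row, 15 arrays) and gastrocnemius (lower row, 8 arrays), coloured by group. Pmp22 follows Mbp along a line in both rows (r = 0.944 and 0.971), with the reloaded arrays at both ends in calf, and Cnp in gastrocnemius shows no line (r = 0.01).

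Probe sets of 1 gene did not all follow each other. Over the 15 calf arrays, 5 other Mbp probe sets had r between 0.869 and 0.981 with 1433532_a_at, whereas 1425264_s_at had r = 0.18 and 1425263_a_at r = 0.02. Those are the Mbp probe sets with log2 differences near 0 in suspension, and 1425263_a_at had r = -0.80 with the interquartile range of the array's log2 values. Its suspension difference of 0.07 became -0.00352 with that range as a covariate. Of the Ndrg1 probe sets, 1450976_at and 1456174_x_at followed Mbp at r = 0.857 and 0.843, and 1423413_at and 1450977_s_at at r = 0.521 and 0.378. These are descriptions, and the probe sets compared are read from the same arrays.

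Among 9129 other genes, Gpm6b had the pattern most like Mbp over the 15 calf arrays (r = 0.950), followed by Secisbp2l (0.901), Pon2 (0.897), Stmn1 (0.830) and Scd2 (0.830). Gpm6b (0.915), Secisbp2l (0.904) and Pon2 (0.881) also came first for Pmp22, followed by Cd9 (0.843) and Cadm4 (0.840). With the members themselves ranked too, Mbp was number 1 of 9132 genes for Pmp22, and Pmp22 was number 2 for Mbp. Ndrg1 was number 23 and Cnp number 46 for Mbp. Most like Ndrg1 were Slit2 (0.940), Ncmap (0.878), Cd9 (0.869), Pip4k2a (0.855) and Tpm2 (0.836), and most like Cnp were Mknk1 (0.885), Ndrg4 (0.808), Phc2 (0.797), Phc1 (0.793) and Rab7 (0.793). In suspension against control, Gpm6b differed by 0.65, Secisbp2l by 0.54, Stmn1 by 0.53, Scd2 by 0.87, Cd9 by 0.45, Cadm4 by 0.48 and Pon2 by 0.17 on the log2 scale. The remaining genes most like Ndrg1 and Cnp differed by -0.13 (Tpm2) to 0.56 (Ncmap), with Mknk1 at 0.09 and Rab7 at 0.02, and none of all these genes passed (limma adjusted p between 0.0520 and 0.968). Over the 8 gastrocnemius arrays the genes most like Mbp were Tcf7l2 (r = 0.991), Ppp1r15a (0.982), Pde9a (0.982), Npy (0.981) and Acot12 (0.961), and Pmp22 was number 5 of 9132. Ndrg1 was number 58 and Cnp number 4218 for Mbp there. For Ndrg1, Mbp was number 132 and Pmp22 number 145, so that many genes outside the members followed Ndrg1 more closely in gastrocnemius.

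Other myelin genes were read from a list of which 11 were analysed here and 9 passed the level filter. In suspension against control limma called 0 of the 9, where 0.182% of all probe sets were called higher. At an unadjusted p under 0.05, 6 were higher, against 3.42% of all. Above 0 were 7, against 49.9% of all, and the median was 0.26. The count of calls was 2 in a fit on the 2 groups alone or without suspension 11, and 1 without suspension 25 or in a fit on all 23 arrays. Gjb1, the connexin of Schwann cell gap junctions, differed by 0.20 ± 0.10, and Mag, an adhesion protein facing the axon, by 0.18 ± 0.08 (limma adjusted p = 0.624 and 0.545). The list's other genes with the largest differences, named after their values were seen, were Ncmap (0.56 ± 0.18), a protein of non-compact myelin, Mal (0.54 ± 0.13), a myelin proteolipid, Fa2h (0.44 ± 0.11), which makes hydroxylated myelin lipids, and Dhh (0.37 ± 0.08), a signal from Schwann cells to the nerve sheath, at limma adjusted p of 0.306, 0.0732, 0.0911 and 0.0631.

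The mean log2 signal of those 9 genes was 6.47, 6.58, 6.74, 6.84 and 6.78 on suspension arrays 11, 25, 30, 8 and 9, against 6.35 to 6.43 on the control arrays. On reloaded arrays 14, 15, 16, 18 and 33 it was 6.43, 6.40, 6.50, 6.70 and 6.53. Reloaded 14 and 15 were thus the lowest and reloaded 18 the highest, the order seen for Mbp. In reloaded against suspended muscle 0 of 9 were called by limma and 4 were lower at an unadjusted p under 0.05, against 4.48% of all probe sets. In reloaded against control 0 were called and 1 was higher at that level, against 3.19% of all. In spaceflight 0 were called, 1 was higher at an unadjusted p under 0.05, and the median was -0.07. There 20.6% of all probe sets were under that level in either direction.

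Schwann cell identity genes did not pass the test in suspension. Of 10 tested, limma called 0 in suspension against control, and the median was 0.10. At an unadjusted p under 0.05, 3 were higher, against 3.42% of all probe sets. The count of calls was 1 without suspension 11 or in a fit on all 23 arrays. S100b, a calcium-binding marker of Schwann cells, differed by 0.44 ± 0.10 and Sox10, the transcription factor of the lineage, by 0.26 ± 0.08 (limma adjusted p = 0.0631 and 0.294). The mean of the 10 genes was 6.61 to 6.94 on the suspension arrays and 6.60 to 6.68 on the control arrays, which overlap. In spaceflight 0 of 10 were called, with 1 higher and 1 lower at an unadjusted p under 0.05 and a median of -0.10. Of all probe sets, 20.6% were under that level in either direction.

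**Figure D4:**
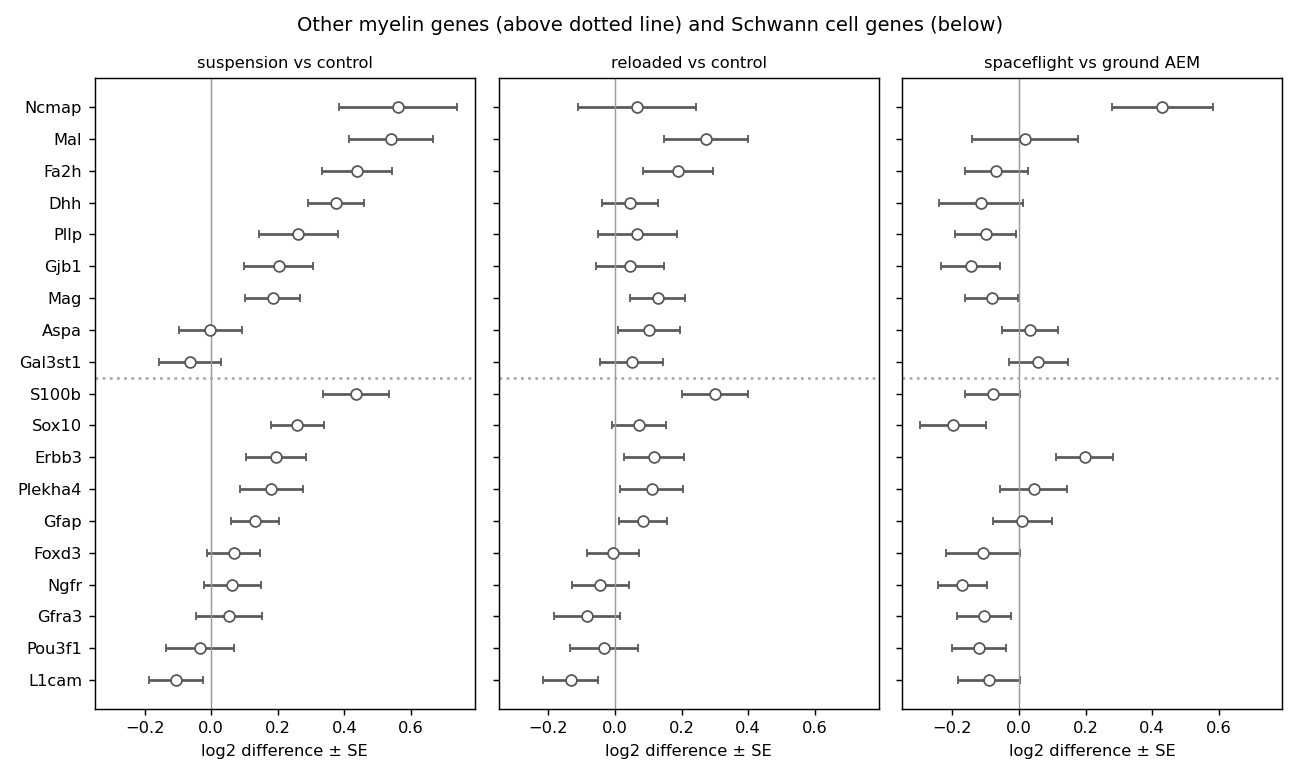
Log2 difference with its SE for 9 further myelin genes (above the dotted line) and 10 Schwann cell identity genes (below it) in suspension against control, reloaded against control, and spaceflight against ground AEM. Open points did not pass limma; in suspension 7 of 9 myelin genes lie above 0, up to 0.56 for Ncmap, and in spaceflight 4 of 9 do.

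Relatives of the members were not called in suspension. Ndrg2, Ndrg3 and Ndrg4, the other genes of the NDRG family, differed by -0.02, -0.02 and 0.13 in suspension against control, and Emp1, Emp2 and Emp3, the epithelial membrane proteins related to PMP22, by -0.14, 0.01 and -0.13, with 0 of either family called by limma or past an unadjusted p of 0.05. In spaceflight Emp1 fell by 0.49 on the log2 scale (limma adjusted p = 0.00287), and the other 5 genes were not called. All 3 EMP genes were lower there at an unadjusted p under 0.05, with a median of -0.36, and 0 of the 3 NDRG genes passed that level. Of all probe sets, 20.6% passed it in either direction. Of 9 tested hypoxia-inducible genes, limma called 0 in suspension, with 1 higher and 3 lower at an unadjusted p under 0.05 and a median of -0.11. In spaceflight Vegfa, a growth factor for vessels, fell by 0.59 (limma adjusted p = 0.0151). All 6 tested cholesterol synthesis genes were above 0 in suspension, against 49.9% of all probe sets, with a median of 0.14. Limma called 0 of them, with 0 past an unadjusted p of 0.05.

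Markers of other nerve components and cell types were read as well, and their part in the results was not tested. For the suspension counts below, 3.42% of all probe sets were higher at an unadjusted p under 0.05 and 49.9% were above 0. Of 12 axon genes, 11 were analysed here and 4 passed the level filter, with Nefl, Nefm and Nefh, the neurofilaments, below it. Limma called 0 of the 4 in suspension, 1 was higher at an unadjusted p under 0.05, the median was -0.01, and the log2 of their summed signal was 8.43 to 8.90 on suspension arrays and 8.46 to 8.77 on control arrays. Of 3 perineurium genes limma called 0, 2 were higher at an unadjusted p under 0.05, the median was 0.35, and the log2 of their summed signal was 8.34 to 8.66 in suspension against 8.09 to 8.23 in control, without overlap. Of 6 adipocyte genes limma called 0, 3 were higher at an unadjusted p under 0.05, 5 were above 0 and the median was 0.32. The log2 of their summed signal was 12.84 to 12.97 in suspension against 12.66 to 13.04 in control, and their mean log2 signal was 8.72 to 9.05 in suspension against 8.16 to 8.74 in control, so that both measures overlap. Of 5 fibroblast genes all were below 0 with a median of -0.35, limma called 0, 2 were lower at an unadjusted p under 0.05, and the sum was 11.65 to 12.33 in suspension against 12.15 to 12.58 in control. In spaceflight, where no member was called, 4 of the 6 adipocyte genes rose: Cidec by 1.67, Adipoq by 1.44, Retn by 1.05 and Lep by 0.62 on the log2 scale (limma adjusted p = 0.000267, 0.000167, 0.000718 and 0.0172). There limma also called 2 of the 5 fibroblast genes and 1 of 8 endothelial genes lower. It called 0 of the 4 axon and 3 perineurium genes, where 6.36% of all probe sets were called in either direction.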

How the data were processed

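RNA from snap-frozen muscle was hybridised to Affymetrix arrays, 1 per sample. The authors deposited log2 values per probe set (2.49 to 14.23), with RMA and MAS5 named in the submitters' processing notes. Not given in the sources used here are the versions, which method the table comes from, whether all arrays were normalized together, and any batch. The labels do not state that replicates are different animals, and p-values then reflect only the spread between these samples. The number of arrays limits precision.

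No normalization was added. Of 22690 probe sets, 64 controls were left out. Gene symbols come from the platform annotation, which can be old: 20380 probe sets have 1 symbol, 691 several and 1555 none. Probe sets above the 40th percentile (5.83) on at least 4 arrays, 14851 in all, were fitted with limma 3.58.1 (lmFit, eBayes, two-sided moderated test, R 4.3.3) with p adjusted over all of them (Benjamini-Hochberg) and calls at 0.05. The 8 flight arrays had their own fit, the 15 calf arrays another, and differences of effects used all 23. Correlations used deviations from group means, permuted within groups (100000 resamples in calf, all 576 rearrangements in gastrocnemius). Scripts were tested on simulated data.

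The members, gene lists, tests and alternatives were chosen with earlier results of these data known. The text names every member probe set, and called list genes (up to 6 per list) apart from fibroblast and endothelial ones. Also named are fixed genes of the myelin, EMP and NDRG families, and the 5 genes most like each member over the calf arrays (for Mbp also over the gastrocnemius arrays). Genes are given by the probe set with the highest mean. Alternatives were other level filters, 1 probe set or the mean per gene, quantile normalization, centring, eBayes trend with robust estimation, array weights, other sets of arrays, an adjusted p under 0.01, exchanged flight labels and each array left out. Array range as a covariate and correlations without the reloaded arrays were added after seeing the data. Promoter sequences are from RefSeq (GRCm38.p6).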

Additional observations from a re-analysis of the deposited data

Results flagged for a closer look

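Of 85 sets of 4 or 5 arrays (17 probe sets in 5 groups), 4 held an array whose gap to its nearest neighbour was unusually large for the range of its group, 4.71%, and chance gives about 1 in 20. Cnp 1437341_x_at was highest on suspension 8, at 8.16 against 7.83 on the next array (a gap of 0.747 of the range). Ndrg1 1456174_x_at was highest on suspension 9, at 7.25 against 6.88 (0.742 of the range). Ndrg1 1450977_s_at was highest on reloaded 18, at 7.56 against 7.30 (0.782 of the range). Cnp 1418980_a_at was lowest on control 22, at 6.87 against 7.06 (0.726 of the range).

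The effects of flight and of suspension on Cnp 1449296_a_at differed by -0.44 (limma adjusted p = 0.0451), with a flight effect of -0.20 and a suspension effect of 0.24. That call was lost in 17 of 25 alternatives, with adjusted p between 0.0274 and 0.868.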

How the results depend on the processing

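No paired analysis was possible because the groups compared share no replicate numbers that pair samples. Of the 11 called differences, all 231 alternative values kept their direction, and 97 lost the call, 70 of them with 1 array left out. The cause was not tested. In suspension against control the count of 10 member calls was 12 in a fit on only the 2 groups, 11 with all 23 arrays, 5 with an eBayes trend, 3 with array weights, 2 at an adjusted p under 0.01, 0 without suspension 8 and 9, and 2 to 11 with 1 array left out. For the further myelin genes 0 calls became 2 with only the 2 groups, 1 with all 23 arrays and 0 to 2 with 1 array left out, and for Schwann cell identity genes 1 with all 23 arrays and 0 to 1 with 1 array left out. In flight 1 further myelin gene was called without ground AEM 3 and 1 axon gene without spaceflight 10. For the members in reloaded against suspension the count was 0 to 4 with 1 array left out, and in reloaded against control 1 with array weights. For flight minus suspension, 1 call became 0 without a level filter, with centring, with array weights or at an adjusted p under 0.01, 10 with exchanged labels, and 0 to 6 with 1 array left out. For flight minus the reloaded effect 0 became 1 with exchanged labels. Calls over all probe sets ranged with 1 array left out over 14 to 70 in suspension, 58 to 104 in reloaded against suspension, 24 to 64 in reloaded against control, 565 to 1007 in flight, and 162 to 311 and 329 to 565 for the differences of flight from suspension and from the reloaded effect, and over the other alternatives over 7 to 71, 49 to 97, 21 to 134, 343 to 1094, 83 to 969 and 186 to 780.

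In calf, quantile normalization brought Mbp with Ndrg1 (0.676) and Pmp22 with Cnp (0.730) past the threshold, as did gene means for Mbp with Cnp (0.785), Mbp with Ndrg1 (0.896) and Pmp22 with Cnp (0.779). Calls were lost with array range regressed out for Pmp22 with Ndrg1 (0.795) and Cnp with Ndrg1 (0.775), with gene means for Cnp with Ndrg1 (0.717), and without the reloaded arrays for both (0.590 and 0.580). With 1 calf array left out, r was 0.541 to 0.748 for Mbp with Ndrg1 (past the threshold without control 19, control 2 or suspension 30), 0.523 to 0.838 for Pmp22 with Cnp (past it without reloaded 14 or 16) and 0.686 to 0.844 for Cnp with Ndrg1 (lost without suspension 8). With 1 gastrocnemius array left out, r was 0.600 to 0.929 for Mbp with Ndrg1, 0.633 to 0.911 for Pmp22 with Ndrg1, -0.0454 to 0.937 for Cnp with Ndrg1 (past it without ground AEM 1), -0.270 to 0.511 for Mbp with Cnp and -0.277 to 0.623 for Pmp22 with Cnp, which leaves fewer rearrangements.

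Reversals were seen only among differences that were not called. Mbp 1425263_a_at in suspension was -0.0286 with array weights, -0.0318 without suspension 8 and 9 and -0.00352 with array range as a covariate. With exchanged flight labels it was 0.0868 for flight minus suspension and 0.296 for flight minus the reloaded effect, where 1425264_s_at was 0.0227 and Cnp 1449296_a_at 0.125, and for that last difference 1425263_a_at was also 0.0160 with quantile normalization and 0.00293 with centring. In flight, Ndrg1 1456174_x_at was -0.0347 with array weights, and with array range as a covariate Ndrg1 1450977_s_at was 0.0317 and Mbp 1451961_a_at 0.0926. With 1 array left out, flight differences crossed 0 for Mbp 1433532_a_at (-0.0940 to 0.423), 1419646_a_at (-0.133 to 0.430), 1436201_x_at (-0.00210 to 0.440), 1456228_x_at (-0.0604 to 0.455), 1451961_a_at (-0.323 to 0.0938) and 1425264_s_at (-0.115 to 0.0176), and for Ndrg1 1420760_s_at (-0.0428 to 0.215), 1450977_s_at (-0.162 to 0.00572) and 1456174_x_at (-0.109 to 0.147). So did Mbp 1425264_s_at in reloaded against control (-0.0581 to 0.0696), and, for flight minus the reloaded effect, Mbp 1425264_s_at (-0.132 to 0.0187), Mbp 1425263_a_at (-0.0780 to 0.0700) and Cnp 1437341_x_at (-0.169 to 0.0259).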
